A study of Mus musculus with 4 samples.

Results

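The 10 genes described here, Ankrd37, Egln1, Egln3, Bnip3, Bnip3l, Vegfa, Pdk1, P4ha1, Ndrg1 and Slc2a3, are known targets of the hypoxia-inducible factors (HIFs). They were measured by all non-control probes whose RefSeq transcript accession belongs to 1 of these symbols, which gave 18 of 39429 probes and all 10 genes. The brightest probe on average stood for each gene, and all 18 probes were well above background on all 4 arrays. The 10 genes were among 20633 features tested. The array study compared Aff3-/- with Aff3+/- mouse spleen B cells, 2 arrays per genotype, to ask which transcripts depend on Aff3, which belongs to the AF4/FMR2 group of nuclear proteins. CD43-negative cells of both genotypes were kept for 3 days with LPS (10 ug/mL), a ligand of TLR4, and IL-4 (10 ng/mL), a cytokine that acts with LPS in class switching. The Aff3+/- cells, which serve as controls, carry 1 disrupted allele themselves, and no wild-type or unstimulated cells were analysed here. The labels do not name strain, age or sex, nor say whether the replicates came from separate mice or cultures, so the p-values cover the spread among these 4 samples and no more.

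HIFs are pairs of an oxygen-regulated alpha subunit and the constant partner Arnt. In the presence of oxygen, prolyl hydroxylases of the Egln family mark the alpha subunit for the Vhl ubiquitin ligase, and when oxygen is short the alpha subunit persists and the pair binds hypoxia response elements with the core letters ACGTG or GCGTG. Their targets move cells toward glycolysis, mitophagy and vessel growth, and lipopolysaccharide can also raise HIF-1 alpha in oxygenated immune cells.

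The windows of 250 bases before the annotated start are shown for 4 of the genes, because the core letters are common to HIF targets and were not used to choose the genes. They come from RefSeq (GRCm38.p6), are read 5′ to 3′ on the gene's strand, and have ACGTG or GCGTG on either strand in capitals, so that CACGT and CACGC are the same letters read from the other strand. The windows lie at chr8:45999851-46000100 for Ankrd37 (minus strand), chr7:138909507-138909756 for Bnip3 (minus strand), chr12:54203875-54204124 for Egln3 (minus strand) and chr10:59323046-59323295 for P4ha1 (plus strand). Ankrd37 and P4ha1 are shown because the first, and 1 probe of the second, stood opposite to the other probes described below.
Ankrd37: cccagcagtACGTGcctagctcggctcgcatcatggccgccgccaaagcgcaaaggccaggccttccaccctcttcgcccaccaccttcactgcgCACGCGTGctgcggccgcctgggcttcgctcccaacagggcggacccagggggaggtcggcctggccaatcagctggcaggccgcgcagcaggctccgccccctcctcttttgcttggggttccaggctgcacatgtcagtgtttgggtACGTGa
Bnip3: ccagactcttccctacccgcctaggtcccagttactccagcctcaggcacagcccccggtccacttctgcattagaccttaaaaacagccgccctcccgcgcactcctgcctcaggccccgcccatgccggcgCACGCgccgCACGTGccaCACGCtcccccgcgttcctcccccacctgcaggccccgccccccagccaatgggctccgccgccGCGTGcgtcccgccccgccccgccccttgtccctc
Egln3: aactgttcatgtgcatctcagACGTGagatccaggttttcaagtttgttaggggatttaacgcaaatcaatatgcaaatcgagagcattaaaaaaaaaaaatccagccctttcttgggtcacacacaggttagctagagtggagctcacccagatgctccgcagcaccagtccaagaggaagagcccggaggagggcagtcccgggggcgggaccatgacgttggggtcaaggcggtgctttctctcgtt
P4ha1: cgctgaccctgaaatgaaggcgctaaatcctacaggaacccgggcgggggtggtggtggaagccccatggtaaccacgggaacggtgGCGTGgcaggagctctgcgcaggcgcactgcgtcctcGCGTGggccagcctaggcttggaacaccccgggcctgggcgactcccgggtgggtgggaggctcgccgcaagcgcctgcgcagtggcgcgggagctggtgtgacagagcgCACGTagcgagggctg

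Of the 10 genes, 7 had a window in that table, and all 7 held at least 1 match in at least 1 window, as did 41.5% of all 27025 genes with a window. The Bnip3 window held 5 matches, of which 2 overlap in the palindrome of both strands, and the Ankrd37 window held 4, of which 2 overlap. P4ha1 had 3, and Egln3 had a single match, which begins 229 bases before its start. Egln1, with 1 window, held 2 matches. Vegfa and Pdk1 have 2 windows each, and in both genes 1 of the 2 windows held no match. Bnip3l, Ndrg1 and Slc2a3 had no entry. A match describes letters only and says nothing of binding in these cells.

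No target gene differed between Aff3-/- and Aff3+/- cells beyond the spread of the arrays. The log2 differences ran between -0.23 for Egln3 and 0.39 for Vegfa, with a median of -0.02, against -0.01 over all features tested. In none of the 10 genes did both Aff3-/- arrays lie on one side of both Aff3+/- arrays, whereas 19.5% of all features showed no such overlap (8.36% higher and 11.2% lower in Aff3-/- cells). With limma none of the 10 passed an adjusted p of 0.05 (adjusted p = 1.00 for each), and none reached an unadjusted p of 0.05. Over all features the shares were 0% and 2.04%. The median turned to 0.19 without Aff3+/- array 1 and to 0.12 without Aff3-/- array 2, and it was -0.18 without Aff3+/- array 2 and -0.14 without Aff3-/- array 1. What separated the arrays in every one of the 10 genes was the replicate number. The arrays numbered 1 of both genotypes were brighter than both arrays numbered 2 in 9 genes, and dimmer in Ankrd37. Of all features 64.3% were separated by the number (33.2% brighter and 31.1% dimmer on the arrays numbered 1). A gene separated in this way cannot also be separated by genotype. The overlap of the genotypes in all 10 genes therefore follows from the separation by number.

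**Figure D1:**
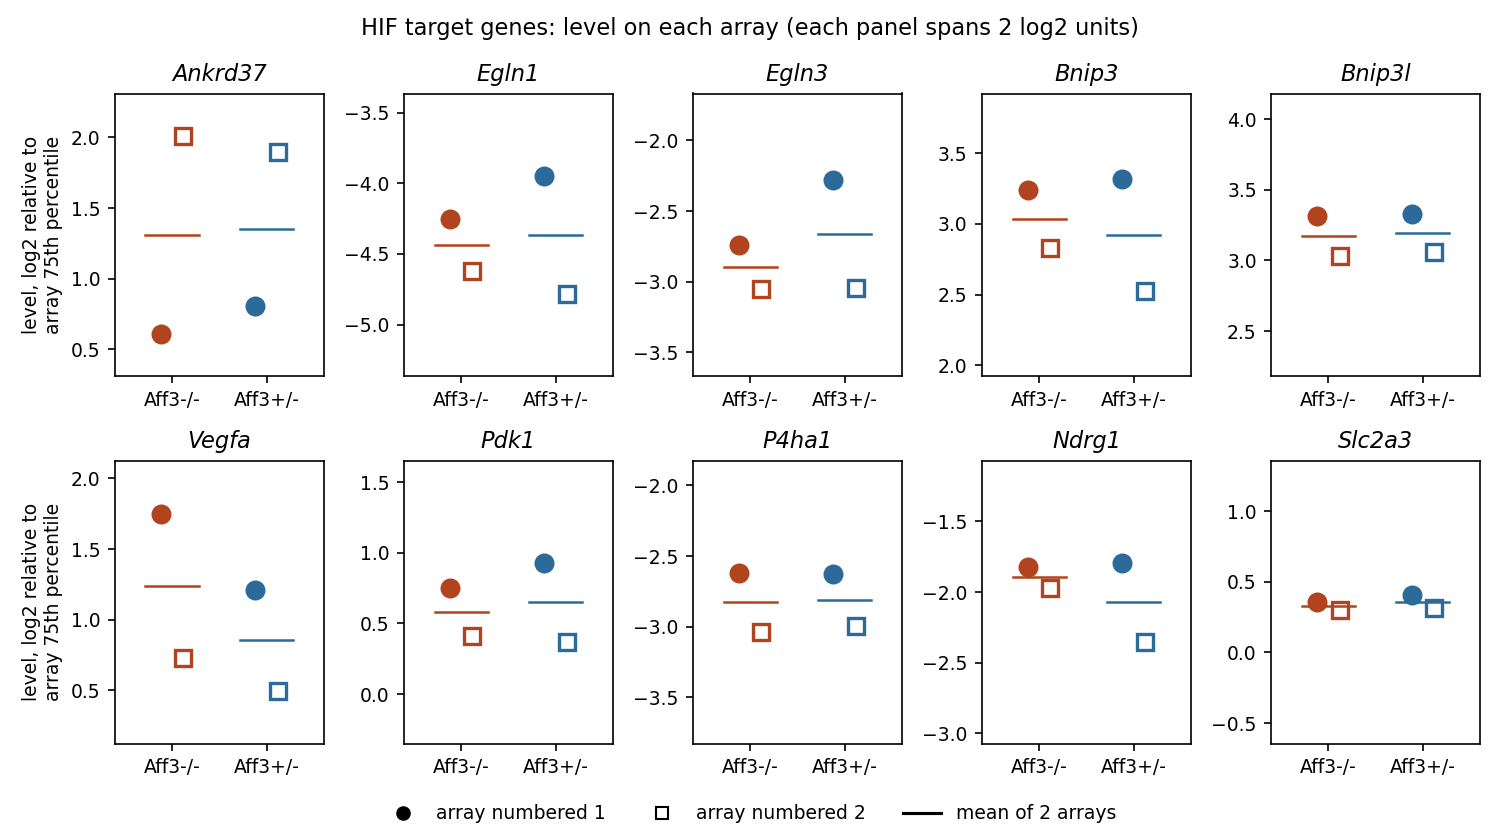
Level of each HIF target gene on each array, in log2 units from the 75th percentile of that array, with Aff3-/- cells in orange-brown and Aff3+/- cells in blue, filled circles for arrays numbered 1, open squares for arrays numbered 2 and a line at the mean of the 2 arrays. Each panel spans 2 log2 units. In 9 genes both filled circles lie above both open squares, in Ankrd37 both lie below, and the genotypes overlap in all 10.

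Among the oxygen sensors, Egln1 encodes the main prolyl hydroxylase that marks HIF-1 alpha in normal oxygen. Its level was -4.25 and -4.62 on Aff3-/- arrays 1 and 2, against -3.95 and -4.78 on Aff3+/- arrays 1 and 2 (log2 units above or below the 75th percentile of each array, the scale of all levels below). The Aff3+/- arrays thus lay outside the Aff3-/- arrays on both sides, and the difference was -0.07 ± 0.32 (log2, SE). Egln3, a hydroxylase that is itself strongly induced by HIF in many cells, stood at -2.74 and -3.05 in Aff3-/- cells, against -2.28 and -3.04 in Aff3+/- cells. The Aff3+/- array numbered 1 was the high one, and the remaining 3 arrays lay within a narrower range. The difference of -0.23 ± 0.29 (log2, SE) was made up of -0.46 between the arrays numbered 1 and -0.01 between those numbered 2. The dimmer Egln3 probe gave -0.44 and -0.12 for the same 2 differences.

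Bnip3 and Bnip3l encode related proteins of the outer mitochondrial membrane that mark mitochondria for mitophagy. Bnip3 was at 3.24 and 2.83 on Aff3-/- arrays 1 and 2, against 3.32 and 2.53 on Aff3+/- arrays 1 and 2. The Aff3-/- values lay inside the range of the Aff3+/- values, and the difference was 0.11 ± 0.31 (log2, SE). All 3 Bnip3 probes repeated this, with genotype differences of 0.11, 0.09 and 0.15, although the dimmest had a processed signal of 62.0 to 98.7 intensity units and the brightest one of 7814 to 12736. Bnip3l was at 3.31 and 3.03 in Aff3-/- cells, against 3.33 and 3.06 in Aff3+/- cells. Between arrays of the same number the genotypes differed by only -0.02 and -0.03, and the 4 probes of the gene gave genotype differences between -0.07 and 0.02.

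Pdk1 encodes a kinase that shuts off pyruvate dehydrogenase and so keeps pyruvate out of the mitochondrial cycle. It was at 0.75 and 0.41 on Aff3-/- arrays 1 and 2, against 0.93 and 0.37 on Aff3+/- arrays 1 and 2, a difference of -0.07 ± 0.24 (log2, SE). Both arrays numbered 1 were again the high ones. Slc2a3, the glucose transporter GLUT3, varied least of the 10 genes. Its level was 0.36 and 0.30 in Aff3-/- cells, against 0.41 and 0.31 in Aff3+/- cells, and its difference of -0.03 ± 0.11 (log2, SE) had a 95% interval of -0.33 to 0.28.

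Vegfa, the growth factor that drives vessel formation, had the largest genotype difference of the 10 genes. Its level was 1.75 and 0.73 on Aff3-/- arrays 1 and 2, against 1.21 and 0.50 on Aff3+/- arrays 1 and 2. Within each number the Aff3-/- array was the brighter, by 0.54 and 0.23 (log2), but Aff3-/- array 2 was dimmer than Aff3+/- array 1, so the genotypes overlapped. The difference was 0.39 ± 0.43 (log2, SE), a fold of 1.31, with adjusted p = 1.00 (limma) and a 95% interval of -0.74 to 1.51. The second probe, which cites another Vegfa transcript and was dimmer, gave 0.51 and 0.17 within the numbers. Without Aff3-/- array 1 the difference turned to -0.12 (adjusted p = 0.98, limma).

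P4ha1 encodes the catalytic subunit of collagen prolyl 4-hydroxylase, an enzyme distinct from the Egln hydroxylases. Its brighter probe was at -2.62 and -3.04 on Aff3-/- arrays 1 and 2, against -2.63 and -2.99 on Aff3+/- arrays 1 and 2, a difference of -0.02 ± 0.21 (log2, SE). The dimmer probe cites the same transcript and ran the other way between the numbers, at -5.60 and -4.49 in Aff3-/- cells, against -5.73 and -4.73 in Aff3+/- cells. With processed signals of 24.1 to 57.3 intensity units it was the dimmest of the 18 probes. Which of the 2 probes reports P4ha1 was not tested.

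Ndrg1 encodes a protein induced by hypoxia and by differentiation in many cell types. It was at -1.82 and -1.97 on Aff3-/- arrays 1 and 2, against -1.79 and -2.35 on Aff3+/- arrays 1 and 2. The Aff3+/- array numbered 2 was the low one, so that the difference of 0.18 ± 0.22 (log2, SE) came to 0.38 between the arrays numbered 2 and -0.03 between those numbered 1. Ankrd37 encodes a small ankyrin repeat protein. It was at 0.61 and 2.01 on Aff3-/- arrays 1 and 2, against 0.81 and 1.90 on Aff3+/- arrays 1 and 2. The genotype difference of -0.04 ± 0.60 (log2, SE) was small beside the distance between the numbers, and its 95% interval of -1.62 to 1.54 was the widest of the 10.

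**Figure D2:**
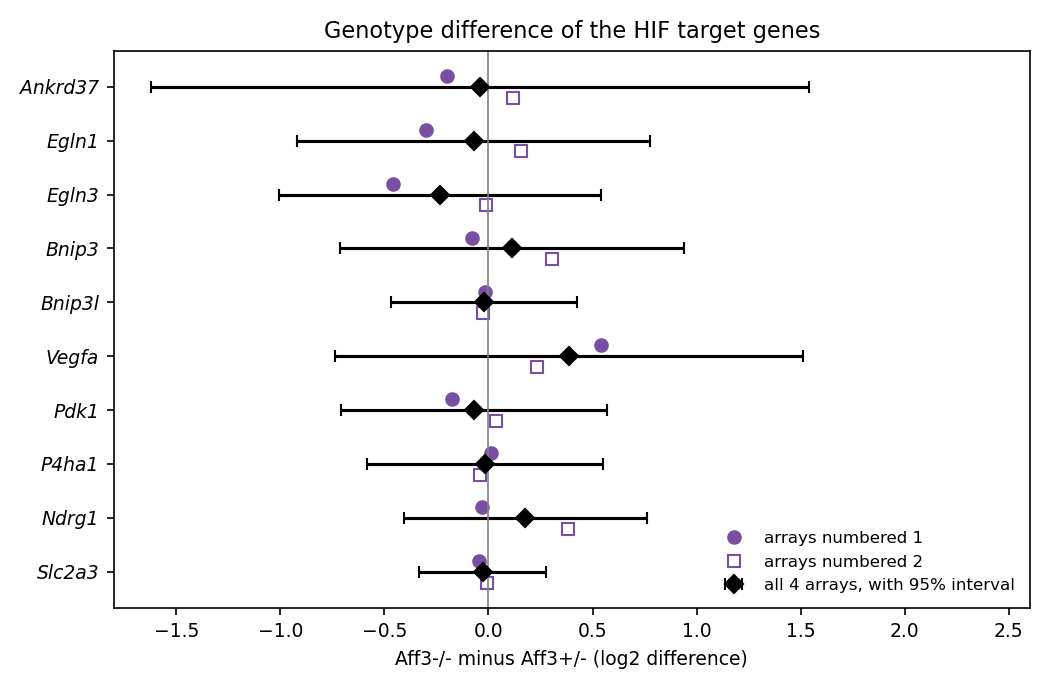
Aff3-/- minus Aff3+/- log2 difference of each HIF target gene over all 4 arrays (diamonds, with 95% intervals from limma) and between the arrays of the same number (filled circles for number 1, open squares for number 2). Every interval includes 0, from the narrowest in Slc2a3 (-0.33 to 0.28) to the widest in Ankrd37 (-1.62 to 1.54), and 4 of the 10 genes have the same sign within both numbers.

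Between arrays of the same number the genotype had no shared direction in these genes. Among the arrays numbered 1, 8 of the 10 genes were lower in Aff3-/- cells (median -0.06, log2), and among those numbered 2, 6 of the 10 were higher (median 0.08). Over all features the medians were -0.01 for each number. Only Vegfa, Egln3, Bnip3l and Slc2a3 had the same sign within both numbers.

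The difference between the replicate numbers was larger than that between the genotypes in all 10 genes. With 2 arrays per genotype this follows from the separation by number and is no further result. The labels do not say what the number stands for, and this pattern was described after the data were seen, without a test. All 10 genes had both arrays of one number above both of the other, as had 64.3% of all features (33.2% brighter and 31.1% dimmer on the arrays numbered 1). The median difference between array 1 and array 2 was 0.33 in Aff3-/- cells and 0.56 in Aff3+/- cells (log2), against 0.02 and 0.00 over all features. Counts of 9 brighter and 1 dimmer were also found with normexp background correction and with quantile normalization. Leaving out any 1 array could not change these counts, because all 10 genes were already separated with every array in place. With all probes of a gene averaged 8 were brighter and 2 dimmer, since P4ha1 then changed sides.

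Ankrd37 and Vegfa stood farthest apart. Ankrd37 on array 1 was 0.378 times its signal on array 2 in Aff3-/- cells and 0.47 times in Aff3+/- cells, while Vegfa was 2.03 times and 1.64 times. Egln1, Egln3 and Bnip3 followed, with log2 differences of 0.37, 0.31 and 0.41 in Aff3-/- cells and 0.83, 0.76 and 0.79 in Aff3+/- cells. The Egln1 values rest on a single dim probe, with processed signals of 49.3 to 82.7 intensity units. For Pdk1 the differences were 0.34 in Aff3-/- cells and 0.56 in Aff3+/- cells, and for Ndrg1 0.15 and 0.56. P4ha1 (0.42 and 0.37) and Bnip3l (0.28 and 0.27) were nearly equal in Aff3-/- and Aff3+/- cells, and Slc2a3 (0.06 and 0.09) lay closest to 0.

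**Figure D3:**
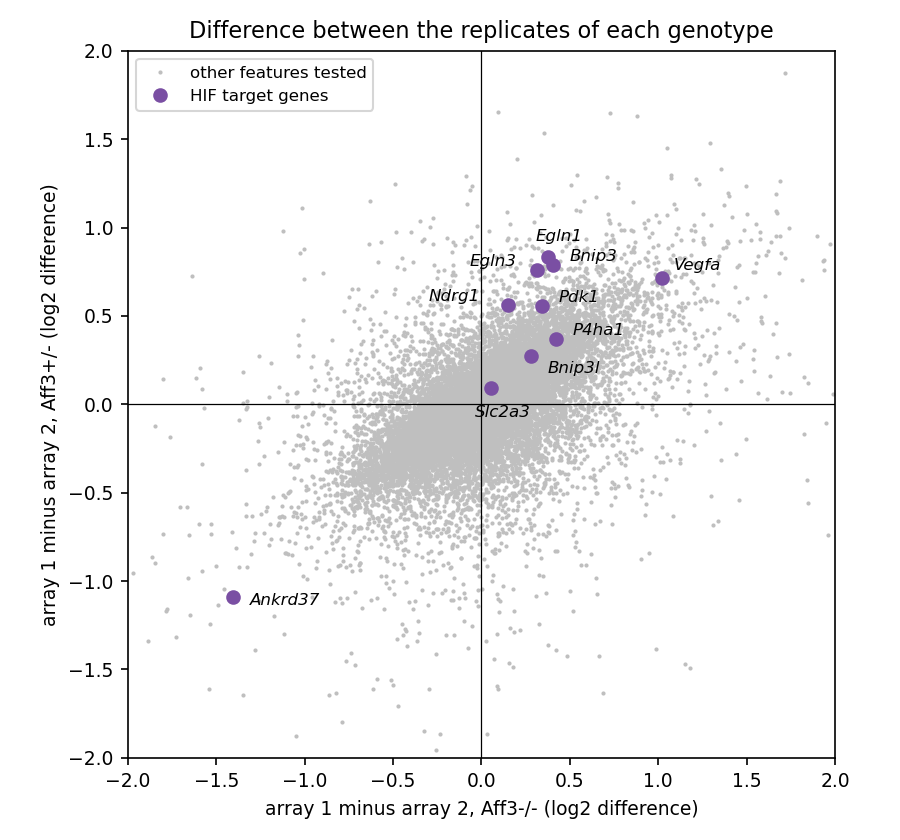
Difference between array 1 and array 2 in Aff3-/- cells (horizontal axis) and in Aff3+/- cells (vertical axis), in log2 units, for the HIF target genes (purple, named) and all other features tested (grey, with 41 beyond the axes not drawn). The 9 points in the upper right quadrant are the genes brighter on both arrays numbered 1, with Vegfa at 1.02 and 0.71, and Ankrd37 lies in the lower left at -1.40 and -1.09.

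The probes of a gene repeated the pattern in 4 of the 5 genes that had several. Of the 18 probes, 16 were brighter on both arrays numbered 1 and 2 were dimmer, those of Ankrd37 and the dim P4ha1 probe. The 3 Bnip3 probes differed between the numbers by 0.16 to 0.43 in Aff3-/- cells and by 0.76 to 0.81 in Aff3+/- cells (log2). The 4 Bnip3l probes gave 0.21 to 0.39 in Aff3-/- cells and 0.24 to 0.54 in Aff3+/- cells. Ankrd37 had a single probe, so that no second probe bears on its opposite direction.

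**Figure D4:**
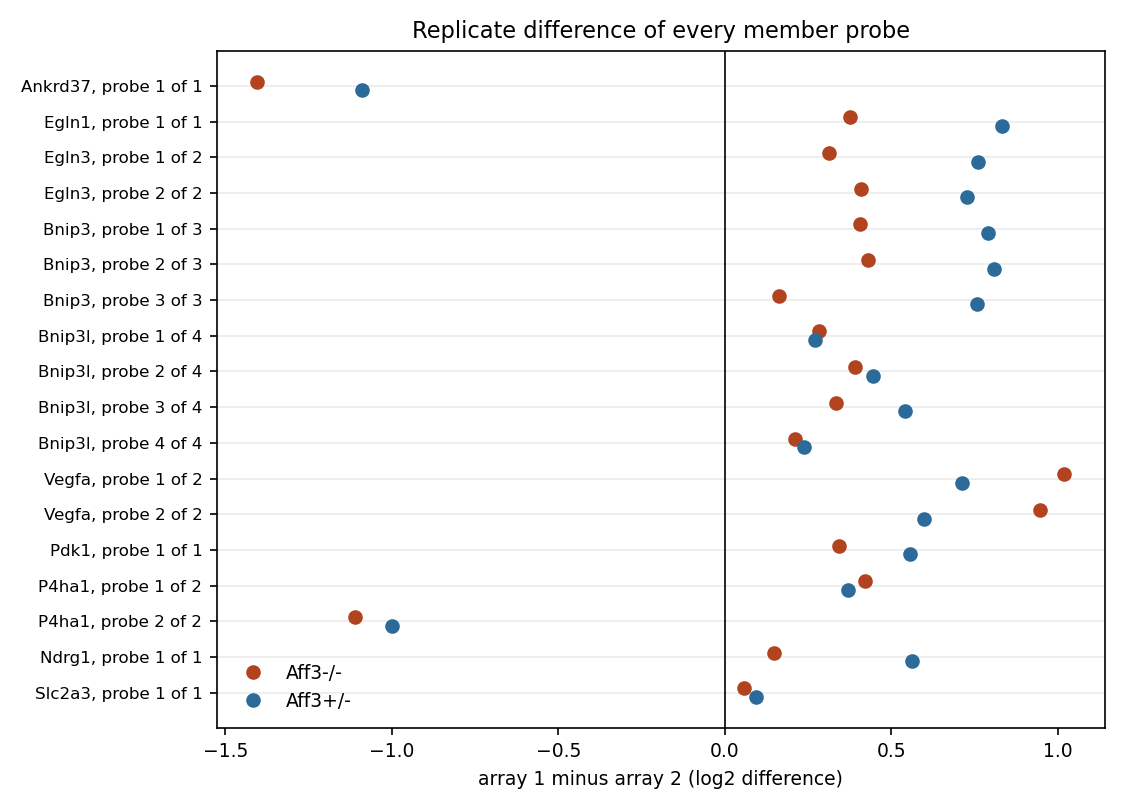
Difference between array 1 and array 2 (log2) for each of the 18 probes, in Aff3-/- cells (orange-brown) and Aff3+/- cells (blue), with the probes of a gene in order of brightness. All probes lie right of 0 except the Ankrd37 probe and the second P4ha1 probe, whose levels are given above.

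Summed marker signals of 3 cell types were separated by the replicate number, and those of another 2 by the genotype. Of all single features 64.3% were separated by the number and 19.5% by the genotype. The summed signal of the B cell markers (5 of 5 well above background, Cd79a and Cd79b among them) was 215.8 and 171.1 on Aff3-/- arrays 1 and 2, against 209.6 and 184.6 on Aff3+/- arrays 1 and 2, in multiples of the array's 75th percentile. The myeloid markers gave 7.85 and 7.18 in Aff3-/- cells, against 8.64 and 7.45 in Aff3+/- cells, with 4 of 8 well above background and Lyz2, Mpo, S100a8 and S100a9 not. Stromal and endothelial markers, 5 of 6 well above background and Col1a1 not, stood at 3.02 and 2.35 in Aff3-/- cells, against 3.03 and 2.64 in Aff3+/- cells. In these 3 lists both arrays numbered 1 lay above both numbered 2. The erythroid markers gave 6.58 and 5.11 in Aff3-/- cells, against 10.5 and 7.83 in Aff3+/- cells, with 4 of 6 well above background on all arrays and Alas2 on none. Plasma cell markers (4 of 4) gave 46.3 and 50.3 in Aff3-/- cells, against 40.1 and 45.6 in Aff3+/- cells. Both Aff3-/- arrays thus lay below both Aff3+/- arrays in the erythroid sum and above them in the plasma cell sum. Of the single genes only Hbb-bt of the erythroid list and Jchain of the plasma cell list were so separated. The other genes of both lists overlapped between the genotypes. Xbp1 was at 5.018 and 5.168 in Aff3-/- cells, against 4.915 and 5.028 in Aff3+/- cells (log2). T cell markers, with 3 of 7 well above background on all arrays and Cd3g and Trat1 on none, gave 2.47 and 2.30 in Aff3-/- cells, against 2.42 and 2.63 in Aff3+/- cells, separated by neither. A single gene carried most of each sum, so that the sums do not describe whole lists. Hbb-bt made up 98.6% to 99.6% of the erythroid sum over the 4 arrays, Itgam 94.9% to 96.2% of the myeloid, Cd4 86.6% to 88.2% of the T cell, Kdr 84.9% to 86.9% of the stromal and endothelial, Xbp1 69.9% to 75.2% of the plasma cell and Cd79b 57.2% to 59.9% of the B cell sum. Other markers ran otherwise: Epor of the erythroid list was dimmer on both arrays numbered 1, at -6.61 and -5.92 in Aff3-/- cells, against -6.90 and -5.99 in Aff3+/- cells (log2), and Cd14 of the myeloid list was not separated by the number. The part of these cells in the pattern of the target genes was not tested, and in bulk RNA fewer cells of a type and less RNA per cell cannot be told apart.

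No gene of the machinery upstream of the targets passed the test between the genotypes. Of 12 listed HIF subunits and oxygen sensors 11 were tested, 5 higher and 6 lower in Aff3-/- cells, with a median of -0.03 (log2) and none past the adjusted threshold. With all probes of a gene averaged 7 were higher and the median was 0.06. The alpha subunit genes Hif1a (0.11 ± 0.12, SE), Epas1 (-0.04 ± 0.15) and Hif3a (-0.09 ± 0.17) all overlapped between the genotypes, as did their partner Arnt (-0.03 ± 0.12). The ubiquitin ligase gene Vhl was 0.06 ± 0.19, its adaptors Elob and Eloc -0.03 ± 0.13 and 0.04 ± 0.12, and the ring subunit Rbx1 -0.06 ± 0.17. The scaffold gene Cul2 (0.14 ± 0.11) was the 1 gene of this list with both Aff3-/- arrays above both Aff3+/- arrays. That count was 3 with averaged probes and 0 with normexp. Of all features 8.36% were higher without overlap, 8.13% with averaged probes and 12.1% with normexp. The asparagine hydroxylase gene Hif1an (0.01 ± 0.14) and the third prolyl hydroxylase gene Egln2 (-0.03 ± 0.17) had both arrays numbered 1 above both numbered 2. In all, 5 of the 11 genes were brighter on the arrays numbered 1 and 3 dimmer, against 33.2% and 31.1% of all features.

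Glycolysis and lactate export genes, which HIF-1 also induces, were lower in Aff3-/- cells in 15 of 20, 5 of them without overlap, with a median of -0.04 (log2) and no gene past the threshold. Over all features 11240 of 20633 were lower, and 11.2% were lower without overlap. With normexp 2 were lower without overlap, and with quantile normalization 3. The aldolase gene Aldoc (-0.31 ± 0.22, SE) and the phosphofructokinase gene Pfkm (-0.16 ± 0.14) had the smallest p on the lower side, and the hexokinase gene Hk2 (0.20 ± 0.21) and the transporter Slc2a1, or GLUT1 (0.17 ± 0.27), on the higher. Between the numbers, 5 of these 20 genes were brighter on both arrays numbered 1 and 7 dimmer (33.2% and 31.1% of all features). Their median difference between the numbers was -0.04, against 0.42 for the 10 target genes and 0.01 over all features (mean of both genotypes). Slc2a1 was among the dimmer, at -0.69 in Aff3-/- cells and -0.26 in Aff3+/- cells, whereas its relative Slc2a3 was slightly brighter.

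Of 37 other listed HIF targets 34 were tested, 21 higher and 13 lower in Aff3-/- cells, with a median of 0.04 (log2), 6 higher and 2 lower without overlap, and none past the threshold. Over all features 8.36% were higher and 11.2% lower without overlap, and with normexp the list had 4 of each. The endoplasmic reticulum oxidase gene Ero1a (0.23 ± 0.12, SE) and the mTORC1 inhibitor gene Ddit4 (0.25 ± 0.16) were higher without overlap. The nuclear prelamin A recognition factor gene Narf (-0.16 ± 0.12) and the carbonic anhydrase gene Car9 (-0.21 ± 0.18) were the lower ones of smallest p. Between the numbers the median difference of the 34 was 0.04. On both arrays numbered 1, 13 of them were brighter and 7 dimmer, against 33.2% and 31.1% of all features. Bhlhe40, a transcriptional repressor, and the transferrin receptor gene Tfrc, both named after their values were seen, were dimmer there as Ankrd37 was. Bhlhe40 differed by -1.11 in Aff3-/- cells and -0.84 in Aff3+/- cells, and Tfrc by -1.15 and -0.68.

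Among 16 tested relatives of the target genes, 5 were higher and 11 lower in Aff3-/- cells, and none passed the threshold. Their median was -0.02 (log2), against 0.01 with normexp. Egln2, P4ha2 and Slc2a1 among them are also counted in the lists above. The transporter gene Slc2a6 (0.26 ± 0.12, SE) was the 1 gene without overlap (3 with normexp and 2 with quantile normalization), against 19.5% of all features. Pgf, a Vegfa relative, was 0.22 ± 0.20. On the lower side P4ha2 was -0.24 ± 0.25 and Ndrg2 -0.12 ± 0.26. Of the 16, 9 were brighter on both arrays numbered 1 and 4 dimmer, with a median of 0.24. With normexp 5 were brighter and the median was 0.04. Over all features 33.2% were brighter and 31.1% dimmer.

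**Figure D5:**
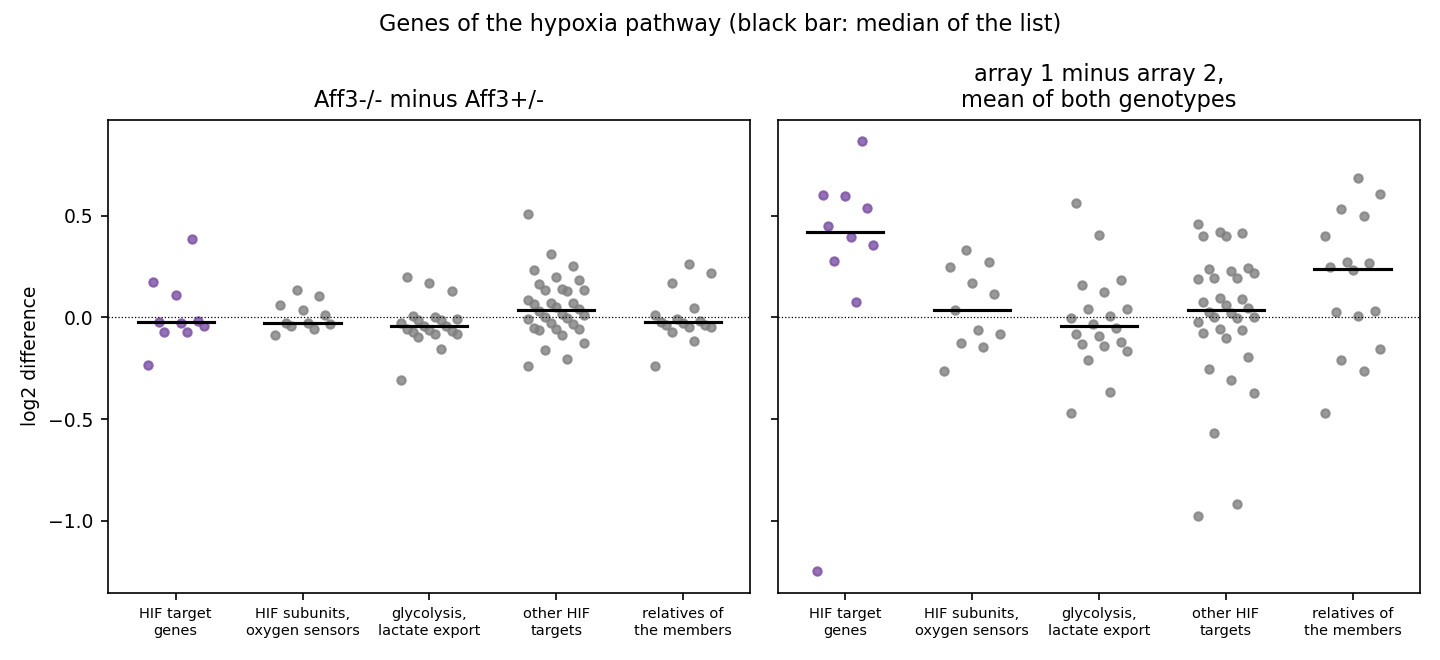
Log2 differences of single genes (points) in the HIF target genes (purple) and 4 further lists of the pathway (grey). A black bar marks the median of each list. Egln2, P4ha2 and Slc2a1 of the relatives also stand in another list. Left, Aff3-/- minus Aff3+/- cells, where all 5 medians lie between -0.04 and 0.04. Right, array 1 minus array 2 as the mean of both genotypes, where the medians are 0.42 for the target genes, 0.04, -0.04 and 0.04 for HIF subunits, glycolysis and other targets, and 0.24 for relatives of the target genes.

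The mean profile of the 10 genes over the 4 arrays was 0.11 and -0.09 on Aff3-/- arrays 1 and 2, against 0.18 and -0.20 on Aff3+/- arrays 1 and 2 (log2, each gene centred on its own mean). The genes nearest to it by root mean square distance over these 4 arrays were 9130008F23Rik, Lratd2, Rnf25, Zfp943 and Zswim6, at distances of 0.0049 to 0.013. Of 13404 named genes above background on all arrays, 1753 lay within 0.1 of it, so nearness to this profile is common.

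All 4 arrays were on 1 slide, each with 24942 to 25862 probes well above background and no saturated gene spot. With so few arrays the precision is limited. No probe could be assigned to Aff3 through its accessions, so the loss of its transcript was not checked here and the genotypes rest on the labels.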

How the data were processed

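Total RNA was labelled with Cy3 and hybridised to 1-colour Agilent arrays, per the labels' protocols. Agilent Feature Extraction 10.7.1.1 read the spots, per the submitters' processing notes, and per the file headers it subtracted background and spatial trends. The deposited processed and median signals are intensity values with no normalization between arrays. Spot flags are part of the same deposited files. A further deposited table, as used here, holds log2 values of 25372 probes, centred on each probe's median. How its arrays were scaled is not known, but its values correlated with the scanner values at r = 1 on every array. The genotype difference of Ankrd37 was -0.0421 in it and -0.0418 in the reported fit, so it is no independent alternative. The column medians of the table were -0.04 and 0.02 for Aff3-/- arrays 1 and 2, and 0.13 and -0.03 for Aff3+/- arrays 1 and 2. It runs in the same direction as the scanner values, but in all 25372 rows Aff3-/- array 1 lay below Aff3+/- array 1, and the reason for these one-sided rows is not known. They held 8 of the 10 genes, without Vegfa and P4ha1.

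Control spots (1377 of 44397) and outlier flags were left out, log2 signals were centred on each array's 75th percentile (1324 and 1290 intensity units for Aff3-/- arrays, 1278 and 1355 for Aff3+/- arrays), and probes well above background on both arrays of a genotype were kept. Symbols came from a RefSeq table of GRCm38.p6, which named 26581 probes by transcript and 6 by synonym. A gene was represented by its brightest probe. Aff3-/- minus Aff3+/- was fitted with limma 3.58.1 (R 4.3.3), with 2 residual degrees of freedom for a gene, a two-sided p, Benjamini-Hochberg adjustment over 20633 features and a threshold of 0.05. Each ± gives the standard error of a difference. A slide block was not possible, because 1 slide and 1 scan held all arrays. Normexp used the median spot signal.

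The genes and lists were chosen with earlier results of these data known. Named were all 10 genes with every probe, all HIF subunits and sensors, and from the other lists the 2 genes of smallest p in each direction, where none passed. Some listed marker genes are not reported here and were left out of the marker sums. The 5 nearest genes were those of smallest distance to the mean profile. As alternatives, normexp, quantile normalization, the deposited table, no filter, averaged probes, a variance trend, a replicate block and the fit without each array were run.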

Additional observations from a re-analysis of the deposited data

How the results depend on the processing

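No feature passed the adjusted threshold in limma under any of the 11 alternatives, where 420 reached an unadjusted p under 0.05 in the reported fit and 237 to 1461 in the others. Of 108 values of single target genes under an alternative, 88 kept their sign and 20 turned. Many of the kept signs were fixed in advance, so this count is no measure of stability. The fits without a filter, with a variance trend and with a replicate block left every difference unchanged. Averaging could not change a gene with 1 probe, and the deposited table gave nearly the same differences. Most of the turns came with 1 array left out. P4ha1 turned to 0.082 with normexp, 0.0016 with quantile normalization and 0.082 with its probes averaged, and Slc2a3 to 0.017 with normexp. A kept sign could still hide a change in size. Normexp moved Egln3 from -0.23 to -0.03 and Ndrg1 from 0.18 to 0.09. It moved Ankrd37 from -0.04 to -0.08 and Bnip3l from -0.02 to -0.06, and left Vegfa at 0.39. With 1 array left out, the differences ranged from -0.74 to 0.66 for Ankrd37, -0.49 to 0.34 for Egln1, -0.61 to 0.15 for Egln3, -0.28 to 0.51 for Bnip3, -0.16 to 0.12 for Bnip3l, -0.12 to 0.90 for Vegfa, -0.35 to 0.21 for Pdk1, -0.23 to 0.19 for P4ha1, -0.10 to 0.46 for Ndrg1 and -0.075 to 0.019 for Slc2a3. Their median ranged from -0.18 (without Aff3+/- array 2) to 0.19 (without Aff3+/- array 1). The genes without overlap ranged from 0 to 5 higher and from 0 to 7 lower. The 5 higher came without Aff3+/- array 1, where 20.4% of all features were higher without overlap. The 7 lower came without Aff3+/- array 2, where 31.7% of all features were lower without overlap. A lone array meets that rule more easily in every feature, and the larger share among the target genes was not tested. The deposited values, with Aff3-/- array 1 below Aff3+/- array 1 in every row, cannot show a higher gene without overlap. Replicate numbers are shared by the genotypes, and deviations of same-numbered arrays correlated across features (r = 0.56), but 2 pairs do not show that numbers pair the samples. With the replicate number as a block 0 features passed, and Vegfa had an unadjusted p of 0.030 (adjusted p = 0.67, limma). Vegfa was the 1 target gene of 10 with an unadjusted p under 0.05 in that fit, as had 1461 of all 20633 features. The counts by replicate number were 7 brighter and 1 dimmer in the 8 genes of the deposited table, and 2 were dimmer with averaged probes. The 2 arrays per genotype limit all intervals.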
